A study of Mus musculus with 14 samples.

Results

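The genes followed here in mouse epidermis are 10 keratinocyte alarmins and cytokines: the interleukin family members Il33, Il18, Il1a and Il1b with the natural antagonist Il1rn, the epithelial cytokine Tslp, Il6, and the chemokines Cxcl14, Ccl20 and Cxcl1. They and the other gene lists were chosen by name, with earlier results of these data known. Counts set beside shares of all genes are therefore descriptions. Each member was read from the probe set with the highest mean over the 14 arrays. The 10 members thus stood among 17097 genes and took 10 of their 13 probe sets on an array of 45141. The arrays carried RNA of homeostatic epidermis of 15-week-old mice, from bulge cells (hair follicle stem cells) or from interfollicular epidermis (IFE), either wild type for G9a (WT) or with a conditional knockout of it (cKO). There were 3 bulge WT, 4 bulge cKO, 3 IFE WT and 4 IFE cKO arrays. G9a, the product of Ehmt2, is a histone methyltransferase associated with gene silencing. No source used here gives the promoter that drove the deletion, the way the cells were separated, or whether replicates came from separate animals, so p-values measure the spread between these samples, which may be technical. All values are log2 signals, on which a difference of 1 is a doubling.

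Alarmins are held ready in barrier cells and alert immune cells when the barrier is damaged. IL-33 is stored in the nucleus and acts on lymphoid and mast cells once it is released. IL-1α is active as its precursor, whereas IL-1β and IL-18 are made as precursors that caspase-1 cuts, and the IL-1 receptor antagonist, encoded by Il1rn, occupies the IL-1 receptor without signalling. TSLP from keratinocytes acts on dendritic cells and lymphoid cells and is known from atopic skin. CXCL14 is a chemokine that healthy skin makes constantly, whereas CCL20 and CXCL1, which attract CCR6+ cells and neutrophils, are known as products of stimulated keratinocytes, as is IL-6.

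The labels were checked first. One Ehmt2 probe set fell from 9.63 ± 0.10 (SD, n = 3) to 5.95 ± 0.07 (SD, n = 4) with the bulge knockout and from 9.67 ± 0.10 (SD, n = 3) to 6.01 ± 0.06 (SD, n = 4) with the IFE knockout, whereas its other probe set differed by 0.01 and 0.08. The keratins of basal keratinocytes were high on every array (Krt5 12.52 to 12.72, Krt14 12.03 to 12.57), and all 12 bulge markers were higher in bulge than in IFE in each genotype. Replicates 2 and 3 of both cKO groups stood apart. In bulge cKO, the mean of the 12 bulge markers was 10.11, 9.38, 9.55 and 10.40 on replicates 1 to 4, and the mean of 15 suprabasal (differentiating) keratinocyte markers was 7.26, 9.0, 8.74 and 8.22, against 6.78 to 7.34 in bulge WT and 8.32 to 8.93 in IFE WT. In IFE cKO, the bulge marker Cd34 read 5.10, 6.65, 6.53 and 5.16, against 5.0 to 5.12 in IFE WT. There the mean of 8 T cell markers was 6.44, 6.72, 6.80 and 6.46, against 6.11 to 6.36 in IFE WT. Of these markers, Cd3g read 5.81, 6.91, 6.90 and 5.71, against 5.10 to 5.58 in IFE WT. Thy1 went the other way, at 9.62, 8.86, 9.07 and 10.08, lowest on replicates 2 and 3. Some results that rest on these arrays are also given without them, where this is stated. The others are given only with them.

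Il33 and Il1rn were the members whose signals moved together most over the 14 arrays (Pearson r = 0.97, a description over arrays of 4 groups), so the 250 bases before their start sites are shown, from the RefSeq promoter table on GRCm38.p6, plus strand. The table holds 3 windows for Il1rn, and the one shown is the most upstream, chr2:24336610-24336859; the other two lie inside the gene, with 4 CG dinucleotides each and no match to the motifs searched. Il33 has one at chr19:29924863-29925112, which overlaps the gene model Gm41832, and one at chr19:29945540-29945789, inside the Il33 gene. Capitals mark an AP-1 motif (TGANTCA) in the first and a TATA box motif (TATAAA) in the others, as found on either strand.
Il1rn: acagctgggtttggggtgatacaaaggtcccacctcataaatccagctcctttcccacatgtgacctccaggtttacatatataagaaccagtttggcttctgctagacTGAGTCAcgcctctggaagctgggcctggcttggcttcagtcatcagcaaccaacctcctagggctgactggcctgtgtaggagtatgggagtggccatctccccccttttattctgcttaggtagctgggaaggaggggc
Il33 upstream: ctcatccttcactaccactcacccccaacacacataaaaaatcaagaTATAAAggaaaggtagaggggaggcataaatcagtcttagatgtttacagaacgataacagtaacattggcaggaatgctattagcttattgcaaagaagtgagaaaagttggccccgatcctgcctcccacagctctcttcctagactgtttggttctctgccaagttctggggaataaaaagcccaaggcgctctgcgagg
Il33 internal: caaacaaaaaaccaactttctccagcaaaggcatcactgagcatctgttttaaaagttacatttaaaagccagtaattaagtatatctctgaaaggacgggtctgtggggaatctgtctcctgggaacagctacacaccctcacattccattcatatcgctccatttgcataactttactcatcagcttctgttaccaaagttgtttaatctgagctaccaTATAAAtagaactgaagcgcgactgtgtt
The AP-1 match spans positions -141 to -135 from the Il1rn start. The TATAAA matches span -203 to -198 and -29 to -24 from the Il33 starts. Of 32536 promoter windows of this length, 6.73% hold the AP-1 motif, 12.3% the TATAAA motif and 7.28% an NF-kB motif. None of these 3 windows holds the NF-kB motif. They hold 1, 4 and 4 CG dinucleotides, against a median of 6 over all windows. The matches are a description of the sequence and do not show that a factor binds there.

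In the wild type, Il33, Il1rn, Il1a, Il18, Tslp and Ccl20 were lower in bulge cells than in IFE, the call for Il18 resting on single arrays, and the chemokine gene Cxcl14 was higher. Of the 10 members, 7 passed the test (limma on all 14 arrays, Benjamini-Hochberg adjusted p under 0.05 over all genes), 6 lower and 1 higher in bulge. The background was wide: 35.1% of all genes passed, 18.4% higher and 16.6% lower, and after median centring of every array 2730 genes were higher and 3695 lower. The median difference of the members was -0.36, against -0.01 over all genes. Since these are bulk samples, fewer cells of a type and less RNA per cell cannot be told apart.

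Il33 differed most among the members. It read 4.72, 4.25 and 4.36 on the bulge WT arrays and 9.11, 8.76 and 8.34 on the IFE WT arrays. The groups lay far apart, with Il33 above only 19% of all probe sets in bulge WT and above 89.5% in IFE WT. The difference was -4.30 ± 0.45 (SE), 19.6-fold, with an adjusted p of 3.18e-05. The size of that fold is uncertain, because Il33 in bulge WT, at 4.44, had only 8 of 22 genes of other organs, which skin is not known to use, below it, and is not shown to be above background. Il1rn read 6.31, 5.92 and 6.38 in bulge WT and 10.26, 9.30 and 9.83 in IFE WT. These groups did not overlap either, and the difference was -3.59 ± 0.54 (SE), 12-fold (adjusted p = 0.000296). The other probe sets of Il1rn gave -3.88 and -4.06.

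**Figure D1:**
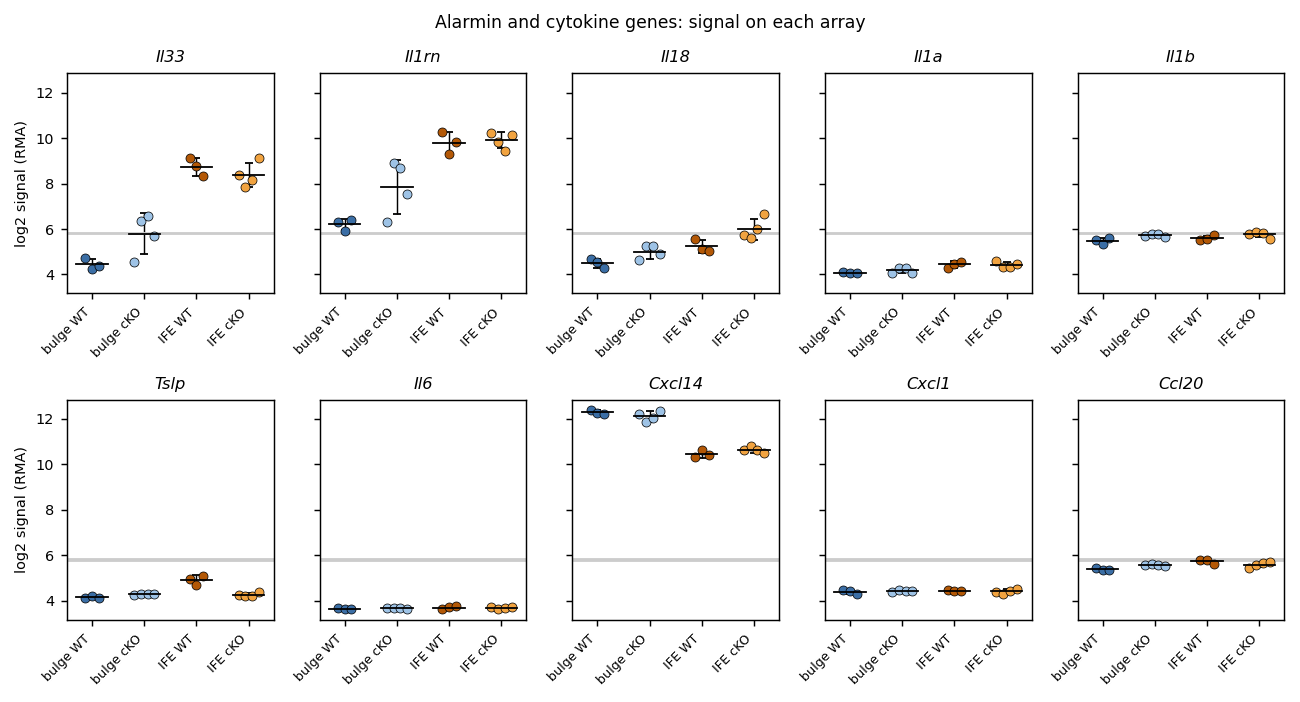
Log2 signal of each of the 10 members (vertical axes, one panel a gene) on every array of bulge WT, bulge cKO, IFE WT and IFE cKO; points are arrays, lines group means, bars the SD, and the grey band is the range of the array medians (5.76 to 5.84). Il33 and Il1rn are low in bulge WT, spread in bulge cKO and high in IFE, Cxcl14 is the reverse between compartments, and Tslp is raised only on the 3 IFE WT arrays, at 4.71 to 5.08.

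Tslp read 4.12, 4.20 and 4.13 in bulge WT and 4.98, 4.71 and 5.08 in IFE WT. All IFE WT arrays were above all bulge WT arrays, by 0.77 ± 0.08 (SE) on average (bulge against IFE -0.77, adjusted p = 2.31e-05). These are dim signals: the genes of other organs lay between 3.84 and 7.50 (22 genes, quartiles 4.45 and 6.22), and 1 of the 22 was below Tslp in bulge WT and 13 in IFE WT. The array carries no detection call, so whether a dim signal is above background was not tested. Il1a (-0.36 ± 0.09 SE, adjusted p = 0.00912) and the chemokine gene Ccl20 (-0.35 ± 0.07 SE, adjusted p = 0.00157) were also lower in bulge WT, with no overlap and with small differences. The same limit holds for both: of the 22 genes of other organs, 1 and 14 were below them in bulge WT, and 6 and 14 in IFE WT.

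Il18 was lower by a margin that the arrays hardly carried, and it was as dim as Il33 in bulge WT, with 8 of the 22 genes of other organs below it. It read 4.68, 4.54 and 4.29 in bulge WT and 5.56, 5.14 and 5.03 in IFE WT, without overlap, and the difference was -0.74 ± 0.25 (SE, adjusted p = 0.0395). It missed the threshold in 5 of the 6 fits that each left out an array, those without any bulge WT array or without replicate 1 or 2 of IFE WT, where the adjusted p ran from 0.0552 to 0.142. The other 6 calls passed in all 6. Il1b (-0.12, adjusted p = 0.364), Cxcl1 (-0.05, adjusted p = 0.522) and Il6 (-0.04, adjusted p = 0.546) did not pass.

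Cxcl14 went the other way and was among the brightest signals of the array. It read 12.41, 12.25 and 12.23 in bulge WT and 10.31, 10.64 and 10.42 in IFE WT. Even the IFE arrays were bright, above 97.8% of all probe sets, and bulge WT stood above them by 1.84 ± 0.13 (SE), 3.57-fold (adjusted p = 4.17e-06). The other Cxcl14 probe set, which is dimmer, gave 2.68.

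Among the knockouts the compartments differed in fewer members. Of the 10, 5 passed, 1 higher and 4 lower in bulge cKO than in IFE cKO, against 32.1% of all genes (17.6% higher and 14.6% lower; after median centring, 2045 genes higher and 3118 lower). Cxcl14 was higher by 1.46 ± 0.11 (SE), 2.75-fold (adjusted p = 2.26e-05), from 11.84 to 12.36 in bulge cKO and 10.48 to 10.82 in IFE cKO. Il33 was lower by a log2 difference of -2.58 ± 0.39 (SE, adjusted p = 0.000676), and Il1rn by -2.04 (adjusted p = 0.00597). Without bulge cKO replicates 2 and 3, Il33 gave -3.25 and Il1rn -2.97, and without IFE cKO replicates 2 and 3 they gave -2.95 and -2.31, all still past the threshold. Il18 was lower by -0.99 ± 0.22 (SE, adjusted p = 0.00536).

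Il1a, at -0.26 ± 0.08 (SE, adjusted p = 0.028), missed the threshold in 4 of 8 fits that left out an array (without bulge cKO replicate 1 or 4, or IFE cKO replicate 1 or 4; adjusted p up to 0.081) and with only these groups in the fit (0.0574). Tslp did not differ between the cKO compartments by more than its spread: it read 4.26, 4.29, 4.28 and 4.28 in bulge cKO and 4.26, 4.22, 4.22 and 4.37 in IFE cKO, and the difference of 0.01 ± 0.07 (SE, adjusted p = 0.908) changed sign with the scaling (-0.023 with cyclic loess and -0.036 with median centring). Ccl20 (-0.02), Il1b (-0.04), Cxcl1 (0.02, below 0 under both of those scalings) and Il6 (-0.03) did not pass either. The comparisons between and within compartments share arrays, so their values are given side by side and are not independent of each other.

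In the bulge, no member passed the test for an effect of the knockout, and the ones with the widest differences, Il1rn and Il33, varied strongly among the cKO arrays. The count was 0 of 10 by limma, against 3.84% of all genes (1.98% higher and 1.85% lower; after median centring, 234 genes higher and 330 lower). At an unadjusted p under 0.05 the count over all genes was 4390. The members' median difference was 0.16, against 0.01 over all genes.

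On replicates 1 to 4 of bulge cKO, Il1rn read 6.29, 8.89, 8.67 and 7.56, and bulge WT spanned 5.92 to 6.38. Replicate 1 lay within the wild type and the others above it. The difference was 1.65 ± 0.50 (SE, adjusted p = 0.0789), and its other probe sets gave 1.78 and 1.89. Il33 read 4.56, 6.34, 6.59 and 5.69, against 4.25 to 4.72 in bulge WT, so that again replicate 1 alone overlapped, and the difference was 1.35 ± 0.42 (SE, adjusted p = 0.0845). Without bulge cKO replicate 1 both passed (Il1rn 2.17, adjusted p = 0.00578, and Il33 1.76, adjusted p = 0.0114). Without bulge cKO replicates 2 and 3 the differences were 0.72 (adjusted p = 0.572) and 0.68 (adjusted p = 0.613).

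**Figure D2:**
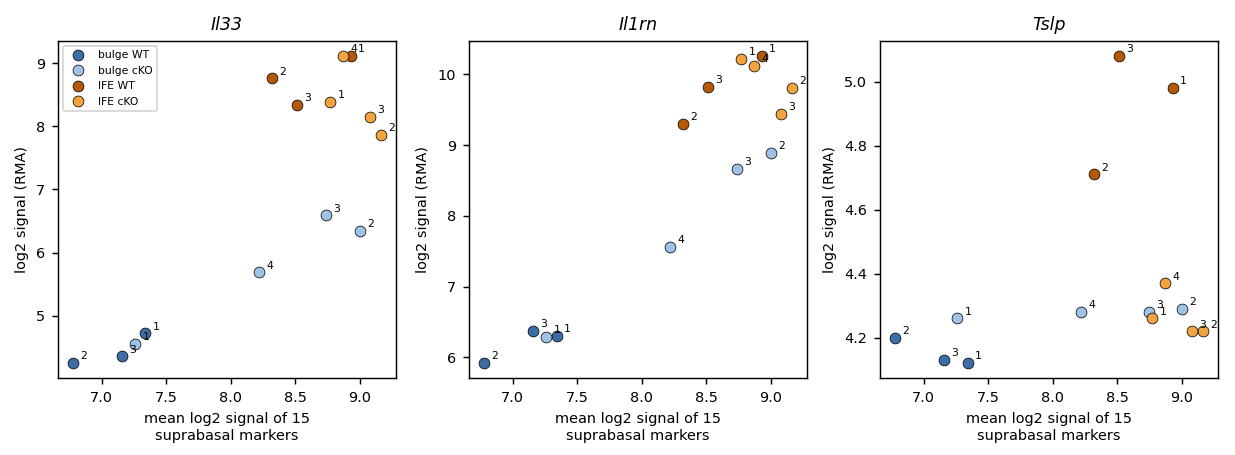
Log2 signal of Il33, Il1rn and Tslp (vertical axes) against the mean log2 signal of 15 suprabasal keratinocyte markers on the same array (horizontal axis); each digit is an array's replicate number and the colour its group. For Il33 and Il1rn, bulge cKO replicates 2 and 3 sit at a marker mean of 9.0 and 8.74, above the bulge WT arrays on both axes. On the vertical axis they lie below all IFE arrays. Replicate 1 sits at 7.26, with the bulge WT arrays.

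Mean signals of suprabasal keratinocyte markers and of several other cell type lists were, like these genes, highest in bulge cKO on replicate 2 or 3. The mean of the suprabasal markers ranged from 6.78 to 7.34 in bulge WT and from 7.26 to 9.0 in bulge cKO. It had the same order of replicates as Il1rn, and 2 of the 15 passed the test, both higher. That count was 9 without bulge cKO replicate 1 (577 higher over all genes) and 3 without replicate 4 (1189). It was 0 without bulge cKO replicate 2 or 3 or bulge WT replicate 1 or 2 (57 to 102). The full fit had 339 higher over all genes. Krt1, a keratin of differentiating layers, read 9.36, 11.93, 11.75 and 11.31 in bulge cKO and 9.41 to 9.87 in bulge WT. The mean of 8 T cell markers was 5.67 to 5.88 in bulge WT and 5.88, 6.67, 6.76 and 6.39 in bulge cKO. Those cKO values had the replicate order of Il33, and 0 of the 8 passed the test. The mean of 11 Langerhans and antigen presenting cell markers was 6.51 to 6.67 in bulge WT. In bulge cKO it was 6.87, 7.37, 7.22 and 7.04, so that replicate 1 was also above bulge WT. Of these 11, 4 were higher by limma, the antigen presentation genes H2-Aa, H2-Ab1, H2-Eb1 and Cd74, against 1.98% of all genes. The Langerhans cell gene Cd207 did not pass (0.56, adjusted p = 0.125), nor did Mfge8, which was lower (-0.59, adjusted p = 0.0878). The mean of 8 upper follicle markers was 7.83 to 8.13 in bulge WT and 8.12, 8.75, 8.65 and 8.35 in bulge cKO. These cKO values again had the replicate order of Il1rn, and 0 of the 8 were higher and 1 lower. For 10 fibroblast and endothelial markers the mean was 5.08 to 5.25 and 5.24, 5.70, 5.47 and 5.22, with 1 of 10 higher. Over all genes 1.98% were higher and 1.85% lower. The pan-leukocyte gene Ptprc was at 3.98 to 4.07 and 4.11 to 4.74. Their part in the result was not tested.

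To place Il33 and Il1rn among other genes, each bulge cKO array was set on the linear scale between the mean of bulge WT (0%) and that of IFE WT (100%). Il1rn lay at 0.464%, 47.2%, 39.3% and 13.5% on replicates 1 to 4, and Il33 at 0.41%, 14.2%, 18.0% and 7.15%. The 160 genes called at least 2 log2 units lower in bulge WT than in IFE WT, which include both, had medians of 1.04%, 32.3%, 30.9% and 11.0%. Il1rn was thus above that median on replicates 2 to 4 and Il33 below it on all 4. The bulge WT arrays enter both this scale and the knockout comparison.

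The other members moved little in the bulge. How many of all genes had arrays without overlap was not counted, so a lack of overlap is only a description here. The arrays of cKO and WT did not overlap for Ccl20 (5.52 to 5.62 against 5.34 to 5.43, difference 0.19 ± 0.06 SE, adjusted p = 0.0955), Il1b (5.67 to 5.78 against 5.33 to 5.60, difference 0.25 ± 0.09 SE, adjusted p = 0.105) and Tslp (4.26 to 4.29 against 4.12 to 4.20, difference 0.13 ± 0.07 SE, adjusted p = 0.278). Il18 gave 0.50 ± 0.24 (SE, adjusted p = 0.209), with replicates 2 and 3 highest at 5.26 and 5.25. Cxcl14 gave -0.19 ± 0.12 (SE, adjusted p = 0.323), with the same replicates lowest at 11.84 and 12.02. Il1a (0.10), Cxcl1 (0.03) and Il6 (0.02) had adjusted p of 0.493, 0.736 and 0.817.

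**Figure D3:**
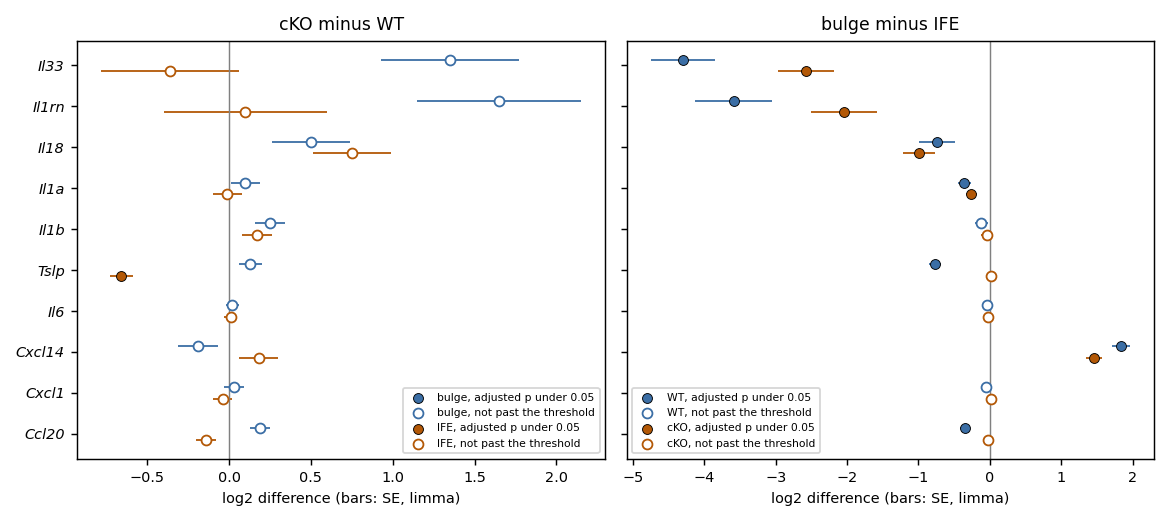
Log2 difference of each member (horizontal axis) as the estimate ± SE, for the knockout effect in bulge and IFE (left) and for bulge minus IFE in WT and cKO (right); filled points passed the threshold of adjusted p under 0.05. The compartment comparisons show Il33 and Il1rn far to the left (-4.30 and -3.59 in the wild type) and Cxcl14 to the right (1.84), and the knockout comparisons have a single filled point, Tslp in IFE at -0.66.

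In the interfollicular epidermis Tslp fell in the knockout. It read 4.98, 4.71 and 5.08 in IFE WT and 4.26, 4.22, 4.22 and 4.37 in IFE cKO, where it lay close to the bulge cKO arrays (4.26 to 4.29). The groups did not overlap, and the difference was -0.66 ± 0.07 (SE, adjusted p = 0.000851), 1.58-fold. This was 1 of 10 members, against 0.497% of all genes (85 genes; 0.322% higher and 0.175% lower). It passed in all 7 fits that left out an array (-0.76 to -0.58, highest adjusted p 0.00945) and without IFE cKO replicates 2 and 3 (-0.61, adjusted p = 0.0301). With only the IFE arrays in the fit the difference was the same and the adjusted p 0.0558, and a filter on dim probe sets removed the gene.

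On these arrays the mean of the suprabasal markers was 8.32 to 8.93 in IFE WT and 8.77 to 9.16 in IFE cKO, that of the T cell markers 6.11 to 6.36 and 6.44 to 6.80, and that of the Langerhans and antigen presenting cell markers 6.54 to 6.95 and 6.81 to 7.15. In this comparison 0 of these 15, 8 and 11 genes passed (limma; 1876 of all genes had an unadjusted p under 0.05). Their part in the Tslp result was not tested.

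The other 9 members did not pass in IFE. Il18 read 5.56, 5.14 and 5.03 in IFE WT and 5.72, 5.61, 6.0 and 6.64 in IFE cKO. Every cKO array was above every WT array, although the difference of 0.75 ± 0.24 (SE) had an adjusted p of 0.249. The share of all genes that separated in this way was not counted. Il33 differed by -0.36 ± 0.42 (SE, adjusted p = 0.842) and Il1rn by 0.10 ± 0.50 (SE, adjusted p = 0.974), both high in each genotype. Il33 was 0.0089 without IFE cKO replicates 2 and 3, so its sign rested on them. Il1b (0.17), Cxcl14 (0.18), Ccl20 (-0.14), Il1a (-0.01), Cxcl1 (-0.04) and Il6 (0.01) had adjusted p of 0.458 or more.

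Whether the knockout effect differed between compartments was tested as the bulge effect minus the IFE effect. Tslp was the 1 member of 10 that passed, at 0.79 ± 0.10 (SE, adjusted p = 0.0223), against 0.105% of all genes (18 genes). It was lost in 5 of 14 fits that left out an array (without bulge cKO replicate 2 or 3, IFE cKO replicate 3, replicate 3 of bulge WT or replicate 1 of IFE WT; adjusted p up to 0.0865), without bulge cKO replicates 2 and 3 together (0.78, adjusted p = 0.114) and without IFE cKO replicates 2 and 3 together (0.74, adjusted p = 0.177). It was also lost with the replicate number as a block (0.79, adjusted p = 0.173). In bulge WT, at 4.15, Tslp had 1 of the 22 genes of other organs below it and was no higher than in IFE cKO (4.27), so whether a fall from that level could have been read was not tested. Il33 (1.72 ± 0.60 SE, adjusted p = 0.263) and Il1rn (1.55 ± 0.71 SE, adjusted p = 0.353) had wider differences with wider errors.

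Il6 and Cxcl1 stayed dim in every group. Il6 read 3.62 to 3.75 over the 14 arrays, below all 22 genes of other organs, and Cxcl1 4.30 to 4.52. Neither passed in any of the 5 comparisons.

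Of the receptors and decoys of these cytokines, 14 of 17 listed genes were measured, and 7 were lower in bulge WT than in IFE WT and 6 lower in bulge cKO than in IFE cKO, none higher (over all genes 16.6% and 14.6% were lower). Without bulge cKO replicate 4, 5 were lower and 1 higher among the knockouts. The decoy receptor Il1r2, which binds IL-1 without signalling, gave -3.90 (adjusted p = 9.65e-06) in the wild type and -1.90 (adjusted p = 0.000598) in the knockout. The signalling receptor Il1r1 gave -0.93 and -0.64, and the shared receptor chain Il1rap, which IL-33 also uses, -1.42 and -0.97 (all adjusted p at or below 0.000744).

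In the bulge knockout 1 of the 14 receptors rose and 1 fell, against 1.98% and 1.85% of all genes. Without bulge cKO replicate 1 or 4, 2 rose and 1 fell. Over all genes 577 rose and 410 fell without replicate 1, and 1189 and 1364 without replicate 4. Il1r2 read 5.31, 6.05 and 6.21 in bulge WT and 7.53, 7.93, 7.94 and 7.0 in bulge cKO, without overlap, a difference of 1.74 ± 0.30 (SE, adjusted p = 0.0116), which missed the threshold without bulge WT replicate 1 (1.47, adjusted p = 0.0671) and without bulge cKO replicates 2 and 3 (1.41, adjusted p = 0.147). Osmr, a receptor subunit for oncostatin M and IL-31, gave -0.56 (adjusted p = 0.0373; -0.43 and 0.321 without those cKO replicates) and -0.55 in IFE (adjusted p = 0.103). Its bulge call was lost in 4 of 7 fits that left out an array, those without bulge WT replicate 1 or 2 or bulge cKO replicate 2 or 3.

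In the IFE knockout 1 receptor passed. Crlf2, the receptor subunit specific to TSLP, read 6.72, 6.71 and 6.66 in IFE WT and 6.43, 6.41, 6.27 and 6.22 in IFE cKO. The groups did not overlap, and the difference was -0.36 ± 0.06 (SE, adjusted p = 0.0197). It missed the threshold without IFE WT replicate 1 or 2 or IFE cKO replicate 3 (adjusted p up to 0.109), and without IFE cKO replicates 2 and 3 together (-0.37, adjusted p = 0.141). In the bulge it gave -0.15 (adjusted p = 0.146), and the difference between compartments, 0.21, did not pass (adjusted p = 0.313).

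**Figure D4:**
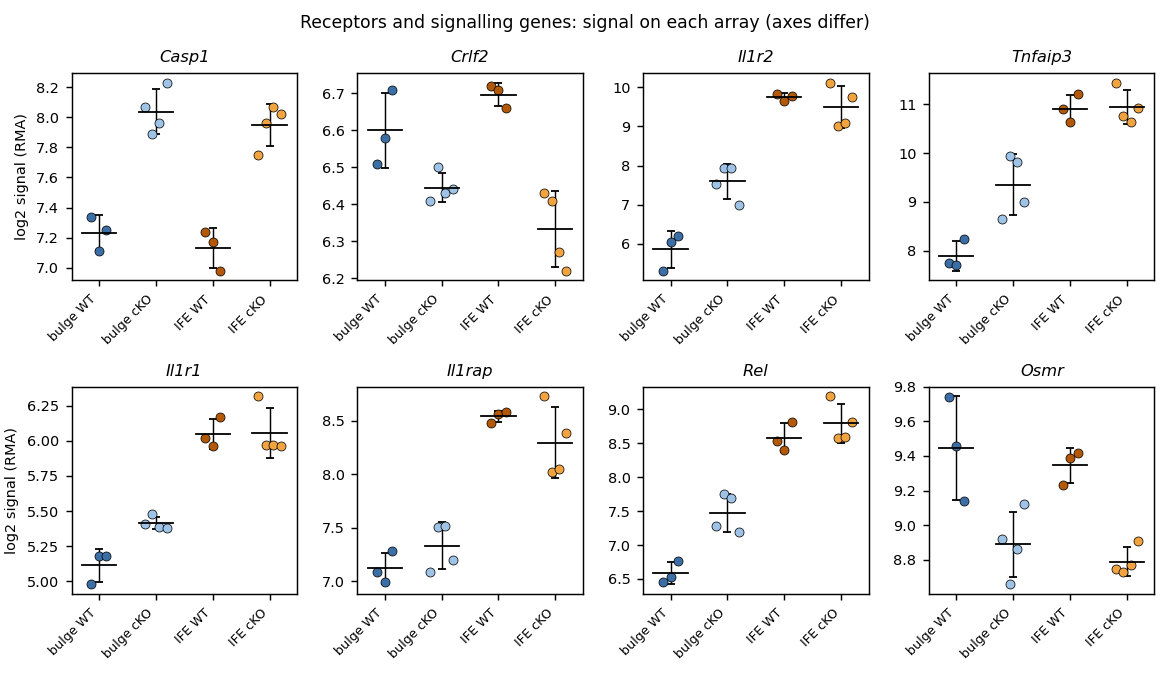
Log2 signal (vertical axes, which differ between panels) of Casp1, Crlf2, Il1r2, Tnfaip3, Il1r1, Il1rap, Rel and Osmr on every array of the 4 groups; lines are group means and bars the SD. Casp1 is higher on all cKO arrays (7.75 to 8.23) than on all WT arrays (6.98 to 7.34) of both compartments, and Il1r2, Tnfaip3, Il1rap and Rel are lower in bulge than in IFE.

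Of the IL-1 signalling and NF-kB genes, 25 of 29 were measured, and Casp1, the protease that processes IL-1β and IL-18, rose in both knockouts. It read 7.34, 7.11 and 7.25 in bulge WT against 8.07, 7.89, 7.96 and 8.23 in bulge cKO, and 7.24, 7.17 and 6.98 in IFE WT against 7.75, 7.96, 8.07 and 8.02 in IFE cKO. No cKO array reached down to a WT array. The differences were 0.80 ± 0.10 (SE, adjusted p = 0.00151) and 0.82 ± 0.10 (SE, adjusted p = 0.00192), passed in every fit that left out an array, and were 0.92 (adjusted p = 0.00616) and 0.76 (adjusted p = 0.0459) without replicates 2 and 3 of the cKO group concerned. Its substrates Il1b and Il18 did not pass in either compartment. The T cell and Langerhans marker means given above were also higher in cKO, and their part in the Casp1 result was not tested.

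In the bulge knockout 4 of the 25 genes rose and 0 fell, against 1.98% and 1.85% of all genes, with a list median of 0.24. Without bulge cKO replicate 4 the count was 8 (1189 higher over all genes). It was 5 without its replicate 1 (577) or without bulge WT replicate 3 (274). Without any other of these arrays it was 1 (57 to 102), against 339 over all genes in the full fit. Beside Casp1 these were Tnfaip3, which restrains NF-kB signalling (1.45 ± 0.30 SE, adjusted p = 0.0261), the NF-kB subunit Rel (0.90 ± 0.18 SE, adjusted p = 0.0193) and Nfkbie, an NF-kB inhibitor named here after its value was seen (0.24, adjusted p = 0.0478). Tnfaip3 and Rel were each lost without bulge WT replicate 1 or 2 or bulge cKO replicate 2 or 3, and Nfkbie without any of these or bulge WT replicate 3, and with either other scaling (adjusted p 0.0861 and 0.0647). Without bulge cKO replicates 2 and 3 together 1 gene, Casp1, rose. In the IFE knockout 1 of 25, Casp1, rose and 0 fell, with a list median of 0.02.

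Between compartments 17 of these 25 were lower in bulge WT and 16 lower in bulge cKO, none higher, against 16.6% and 14.6% of all genes lower, with list medians of -0.73 and -0.50. Tnfaip3 gave -3.02 and -1.59, Rel -2.0 and -1.32, Irak3, a brake on IL-1 receptor signalling, -1.71 and -1.04, the adaptor Myd88 -1.24 and -1.0, and the NF-kB subunit Nfkb2 -0.84 and -0.46.

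Of the 5 other IL-1 family ligands, all measured, 2 were lower in the bulge of each genotype, against 16.6% and 14.6% of all genes. Il1f9, which encodes IL-36γ, gave -3.36 ± 0.49 (SE, adjusted p = 0.000251) in the wild type and -1.28 ± 0.42 (SE, adjusted p = 0.0371) among knockouts, and Il1f5, which encodes the IL-36 receptor antagonist, -0.92 (adjusted p = 0.023) and -0.79 (adjusted p = 0.0274). The cKO calls were weak: Il1f9 was lost in 4 of 8 fits that left out an array (without bulge cKO replicate 1 or 4, or IFE cKO replicate 3 or 4) and Il1f5 in 5 of 8 (without bulge cKO replicate 1 or 4, or IFE cKO replicate 2, 3 or 4), so that 0 of 5 passed without bulge cKO replicate 1 or 4 or IFE cKO replicate 3 or 4. Il1f5 was lost in the wild type without IFE WT replicate 1 or bulge WT replicate 2 (adjusted p up to 0.0935). No ligand of this list passed in either knockout comparison, where Il1f9 gave 1.26 with an adjusted p of 0.118 for the bulge, and -0.82 with 0.56 for IFE. Without bulge cKO replicate 1, 1 ligand passed in the bulge, as did 987 of all genes.

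Of 22 measured other keratinocyte cytokines and alarmins, 10 were lower in bulge WT and none higher, against 16.6% and 18.4% of all genes, and 6 were lower without replicate 1 of IFE WT or of bulge WT. Among knockouts 7 were lower and 1 was higher, against 14.6% and 17.6% of all genes. The 7 became 1 without IFE cKO replicate 4, 2 without bulge cKO replicate 1, and 4 without bulge cKO replicate 4, where 3 were higher, or without IFE cKO replicates 2 and 3 together. The antimicrobial peptide gene Defb1 gave -2.17 (adjusted p = 0.00156) and -1.29 (adjusted p = 0.0168, lost without IFE cKO replicate 4), the cytokine gene Il24 -1.18 and -0.52 (lost without bulge cKO replicate 1, 2 or 4 or IFE cKO replicate 1 or 4), and Il34, which sustains Langerhans cells, -0.85 and -0.62 (lost without IFE cKO replicate 2). The 1 higher gene, the defensin gene Defb3, named after its value was seen, gave 0.13 (adjusted p = 0.0469), and 0.067 (adjusted p = 0.231) with cyclic loess. It passed in 1 of 8 fits that left out an array, the one without bulge cKO replicate 4. In neither knockout comparison did any of the 22 pass by limma, where 4390 (bulge) and 1876 (IFE) of all genes had an unadjusted p under 0.05. In the bulge 4 were higher without bulge cKO replicate 4 (1189 over all genes) and 2 without its replicate 1 (577). In IFE 1 was higher without IFE cKO replicates 2 and 3 (33 over all genes).

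Of 16 measured other chemokines, 3 were higher and 2 lower in bulge WT, near the share over all genes (18.4% higher and 16.6% lower). Cxcl12, which retains CXCR4+ cells, was higher by 2.25 ± 0.31 (SE, adjusted p = 0.000155), Ccl19 by 0.66 and Ccl27a, named after its value was seen, by 0.57. Cxcl16 (-1.0) and Cxcl10 (-0.94), the latter also named afterwards, were lower. Among knockouts Cxcl12 (1.47), Ccl19 (0.56) and Cxcl13 (0.24) were higher and Cxcl16 (-0.59) and Cxcl10 (-0.66) lower, where 17.6% and 14.6% of all genes were. Without bulge cKO replicate 3, 5 were higher. Cxcl10 was lost there without replicate 4 of either group, and Cxcl13 without bulge cKO replicates 2 and 3 together (0.16, adjusted p = 0.0594). None of the 16 passed in either knockout comparison, where Cxcl12 gave -0.92 in the bulge (adjusted p = 0.082). Without bulge cKO replicate 4, 1 was higher and 2 lower in the bulge, against 1189 and 1364 over all genes.

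The genes most like a member over the 14 arrays, by Pearson r, were sought for the 4 members whose group means spanned at least 1 log2 unit. For Il33 they were Als2cl (0.992), Nab1 (0.990) and Prelid3b (0.989), and for Il1rn Slc24a3 (0.997), Ly6d (0.996) and the IL-6 receptor gene Il6ra (0.995). For Il18 they were Rsad2 (0.956), Sema4c (0.956) and Casp12 (0.953), and for Cxcl14 Col8a2 (0.994), Atp8a2 (0.994) and Adcy1 (0.993). For Tslp, added after its values were seen, they were Has3 (0.933), Ccdc80 (0.921) and Mmp3 (0.915). Among the members, Il33 gave r = -0.95 with Cxcl14, 0.82 with Il18 and 0.61 with Tslp. The 14 arrays fall into 4 groups, so these values mostly carry the differences between groups.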

How the data were processed

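RNA was measured on 14 arrays, whose number limits the precision. The deposited values are log2 signals made with RMA, per the submitters' processing notes; RMA corrects background, sets the arrays to a common distribution and joins the probes of a set, which compresses differences of dim probe sets. No source used here gives its version. Array medians ran from 5.76 to 5.84. Of 45141 probe sets, 28898 had 1 gene symbol, 551 several and 15692 none; 28689 symbols were updated through RefSeq by Entrez identifier and 209 kept. The probe set with the highest mean stood for each of 17097 genes.

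Group means were fitted in limma 3.58.1 (R 4.3.3) on all 14 arrays with eBayes, two-sided, with Benjamini-Hochberg adjustment over all genes and a threshold of 0.05. On simulated data with 67 genes changed by 1 log2 unit, 91% were recovered in the bulge and 89.6% in the IFE comparison. The simulated noise was independent between genes and arrays, with the same spread in every group. The data differ: Il1rn had an SD of 1.19 in bulge cKO and 0.25 in bulge WT. Its difference of 1.65 in the bulge did not pass, so these shares need not hold for the bulge comparison. All 10 members are named; of other lists up to 3 called genes per comparison with the smallest p, plus genes said to be named afterwards. The members and lists were chosen with earlier results of these data known. Other scalings, probe set choices, a filter on dim probe sets, other fits and left-out arrays were tried as alternatives; leaving out IFE cKO replicates 2 and 3 together was chosen after seeing the data. Figures were drawn with matplotlib 3.10.9.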

Additional observations from a re-analysis of the deposited data

Results flagged for a closer look

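The Tslp effect of the knockout differed between the compartments by the test of the difference itself. The bulge effect minus the IFE effect was 0.79 on the log2 scale (limma, adjusted p = 0.0223), from 0.13 in the bulge and -0.66 in IFE. The call was lost with the replicate number as a block (adjusted p = 0.173, and 0.132 within genotype), in 5 of 14 fits that left out an array, and without replicates 2 and 3 of either cKO group. Tslp was already dim in bulge WT (4.15, with 1 of 22 genes of other organs below it), so whether a fall there could have been read was not tested. In 20 groups of 4 arrays of the members, no single array stood apart from the other three by Dixon's ratio.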

How the results depend on the processing

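The number of members that passed was 0 in the bulge knockout comparison and 0 to 2 with an array left out. In IFE it was 1, and 0 under the filter on dim probe sets or with only the groups compared. It was 7 between wild-type compartments and 4 under that filter, which tests fewer genes. For the difference of effects it was 1, and 0 under the filter, without replicates 2 and 3 of bulge cKO or of IFE cKO, under either replicate block, and 0 to 1 with an array left out. Genes passing in the bulge were 656, and 116 without replicates 2 and 3 of bulge cKO, 72 with only the groups compared, 412 with the replicate block and 116 (without bulge WT replicate 1) to 2553 (without bulge cKO replicate 4) with an array left out. In IFE they were 85, and 37 without IFE cKO replicates 2 and 3, 48, 33 and 38 (without IFE WT replicate 1) to 107 under the same kinds of change. For the difference they were 18, and 6 under the filter, 3 and 1 without replicates 2 and 3 of bulge or IFE cKO, 2 with the block, 0 with the block within genotype, and 3 to 240 (without bulge cKO replicate 4). The cause was not tested.

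Signs turned where values were near 0. For Tslp between knockouts these were -0.023 (cyclic loess), -0.036 (median centring), -0.034 (without IFE cKO replicates 2 and 3) and -0.0031 to 0.046 with an array left out. For Il33 in IFE it was 0.0089. For Il1a they were -0.015 (bulge) and -0.009 (difference) without bulge cKO replicates 2 and 3, 0.1 (IFE) and -0.0032 (difference) without those of IFE cKO, 0.0078 (IFE, block) and -0.075 to 0.058 (IFE, array left out). Il1b gave 0.055 between knockouts without IFE cKO replicates 2 and 3 and -0.0019 to 0.13 for the difference. Il1rn in IFE gave -0.15 to 0.33. Il6 gave -0.00013 and -0.0079 (bulge) and -0.011 (difference) with loess or centring, -0.009 (IFE, centring), -0.019 and -0.0034 (difference, without IFE or bulge cKO replicates 2 and 3), and -0.0016 to 0.038, -0.033 to 0.033 and -0.016 to 0.05 in bulge, IFE and difference. Ccl20 between knockouts gave 0.0058 and -0.074 to 0.0094. Cxcl1 gave -0.014 to 0.072 (bulge), 0.0018 (IFE, without IFE cKO replicates 2 and 3), and -0.018, -0.03, -0.025 and -0.018 to 0.055 between knockouts.

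Whether replicate numbers pair the arrays is not given. Same-numbered arrays correlated at -0.62 to 0.25 after removal of group means. With 3 or 4 arrays a group, these correlations cannot settle it, and replicates 2 and 3 stood apart in both cKO groups. With the numbers as a block Tslp gave 0.79 for the difference (adjusted p = 0.173, and 0.132 within genotype), and Il1a between knockouts 0.0632. Dim signals near those of genes of other organs limit Tslp, Il1a, Il6 and Cxcl1, and Il33 and Il18 in bulge WT. They also limit Ccl20 and Il1b, which had 14 of the 22 genes of other organs below them in every group.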
